A study of Mus musculus with 8 samples.

Results

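Medullary thymic epithelial cells (mTECs) sorted as Tspan8pos MHCIIhi were compared with mTECs sorted as Tspan8neg MHCIIlo across all genes measured by RNA-seq. The comparison used 4 of the 8 libraries of the series, 2 biological replicates of each subset, chosen by the Tspan8 and MHCII gates in their labels. The other 4 libraries, 2 of Tspan8neg MHCIIhi and 2 of Tspan8pos MHCIIlo mTECs, entered the same fit for the estimate of the spread, and their values are set beside the results. All cells came from the thymus of wild-type BL6N6 mice, which the study's methods give as 4 to 6 weeks of age, and no treatment is named. Cells had been gated as CD45neg, Epcam-positive and CDR1neg, so that blood cells and cortical thymic epithelium should have been left out, and were then split by surface Tspan8 and MHCII. The subsets differ in both sort markers at once, and the part of each marker in a difference cannot be told apart. Each subset is a mixed population: the Tspan8neg MHCIIlo gate takes in immature mTECs together with late, tissue-like ones that have lost MHCII. In bulk libraries of this kind, fewer cells of a type and less RNA per cell cannot be told apart. The labels call the replicates biological, but nothing says which mice each was made from.

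mTECs show developing T cells the proteins of other organs, the tissue-restricted antigens, and thereby help to remove self-reactive T cells. In the usual account, immature mTECs with little MHCII and abundant Ccl21a mature into MHCII-rich, CD80-positive cells that express the autoimmune regulator Aire. They then pass into late stages that resemble keratinocytes, gut, airway, Microfold, Tuft and other epithelia. Tspan8 encodes a tetraspanin of gut and other epithelia and serves in this study as one such tissue-restricted antigen.

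The 4 libraries held 3456419 to 5432321 estimated counts in total and 19485 to 21457 genes with a count above 0. Levels are given as counts per 1000000 (CPM) scaled by TMM factors, and 3 counts in 1 library corresponded to between 0.597 and 0.843 CPM. Where 2 values are set against 2, they are replicates 1 and 2 of Tspan8neg MHCIIlo and then replicates 1 and 2 of Tspan8pos MHCIIhi, and pairs of values for the other subsets are their replicates 1 and 2. A single number in parentheses after a gene is its fitted log2 fold change, Tspan8pos MHCIIhi over Tspan8neg MHCIIlo, followed by its standard error (SE) and adjusted p where these are given, and only called genes are said to have risen or fallen. Genes whose fitted fold moved by over 1.5 times when 1 library was left out are given by their library values alone, apart from Tspan8, Cd80, Tnfsf11 and Hoxa3, for which the value without that library is given too. Markers of other cells were measured in each library, since a sort can carry their RNA. In Tspan8neg MHCIIlo, 15 thymocyte markers summed to 713 and 1971 CPM against 133 and 223 CPM in Tspan8pos MHCIIhi, and 11 B and plasma cell markers summed to 1283 and 2183 against 207 and 222 CPM. Replicate 2 of Tspan8neg MHCIIlo held more of both than replicate 1. The 8 endothelial markers summed to 214 and 142 against 36.4 and 37.4 CPM, the 10 fibroblast markers to 288 and 402 against 197 and 205 CPM, and the 6 erythroid markers to 70.8 and 103 against 34.1 and 45.5 CPM. The 10 myeloid and dendritic markers ran the other way as a sum, at 67.1 and 140.3 against 477 and 502 CPM, with 3 called higher and 1 lower. Lyz2 is among them and is also counted below with the antimicrobial genes. The 10 cortical epithelial markers, at 400.0 and 620.1 against 617 and 633 CPM, overlapped between the subsets. The part of these other cells in the results below was not tested.

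**Figure D1:**
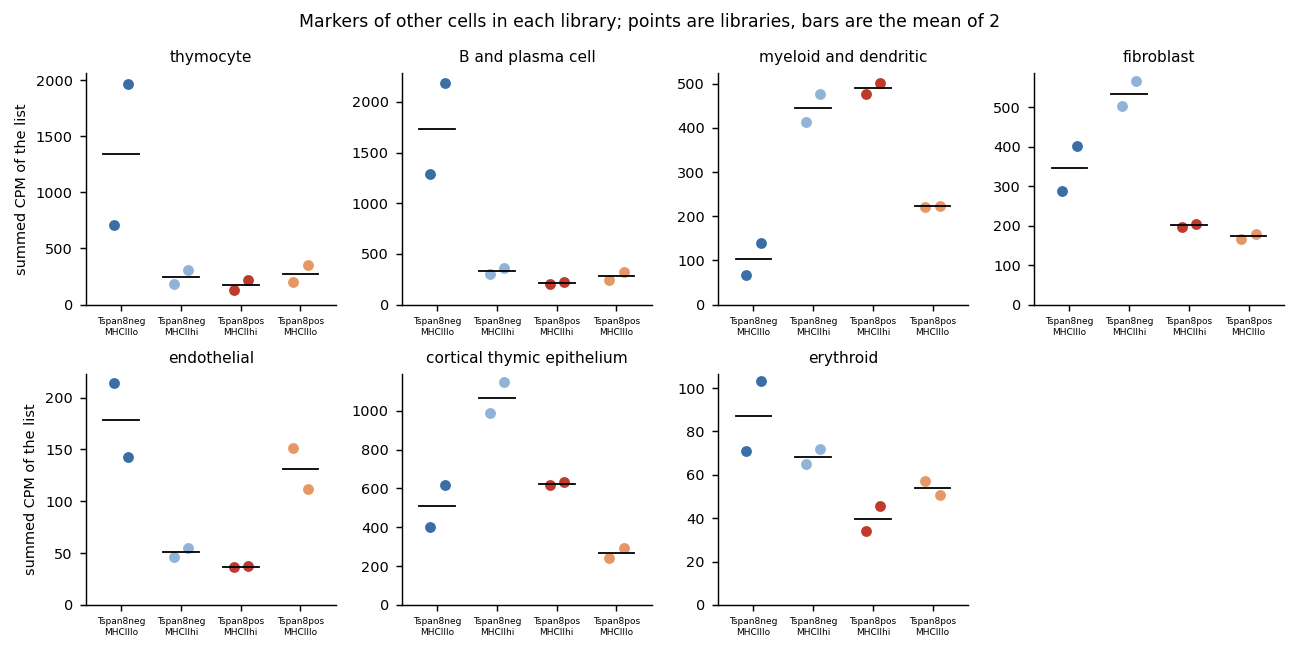
Summed CPM of the marker genes of 7 other cell types (y axis, from 0) in the 8 libraries, 1 panel per cell type. Each point is a library and each bar the mean of 2, and the thymocyte sum reaches 1971 CPM in replicate 2 of Tspan8neg MHCIIlo but lies between 133 and 223 CPM in Tspan8pos MHCIIhi.

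The sort markers were read first. Tspan8 stood at 3.65 and 14.6 CPM in Tspan8neg MHCIIlo against 404 and 352 CPM in Tspan8pos MHCIIhi. Both Tspan8pos MHCIIhi libraries were far above both Tspan8neg MHCIIlo libraries (log2 fold change 5.32, SE 0.36, adjusted p = 9.74e-07), and Tspan8pos MHCIIlo, at 347 and 366 CPM, reached the same range. The fitted value for Tspan8 was 4.71 without replicate 1 and 6.69 without replicate 2 of Tspan8neg MHCIIlo. H2-Ab1, which encodes the beta chain of the I-A MHCII molecule, was much closer between the subsets, at 2074 and 1699.9 CPM in Tspan8neg MHCIIlo against 2431 and 2619 CPM in Tspan8pos MHCIIhi. Its log2 fold change was 0.42 (95% interval 0.15 to 0.69, adjusted p = 0.0154), below the fold of 2 that a call required, although the MHCII gate separates these subsets. Tspan8neg MHCIIhi held 4988 and 5098 CPM and Tspan8pos MHCIIlo 518 and 489 CPM of it, so that the Tspan8neg MHCIIlo libraries lay well above the Tspan8pos MHCIIlo ones at the mRNA level. Epcam, the epithelial adhesion molecule used in the gate, was at 518 and 367 against 866 and 754 CPM and was not called (log2 fold change 0.87, SE 0.17, adjusted p = 0.00142), but passed without replicate 1 of Tspan8neg MHCIIlo (1.16).

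Of 17006 genes tested with edgeR's quasi-likelihood test, 2445 (14.4%) were called higher and 1759 (10.3%) lower in Tspan8pos MHCIIhi than in Tspan8neg MHCIIlo, at an adjusted p under 0.01 and a fold of at least 2. These 2 shares are what the counts of each list below are to be set against. The differences were larger on the higher side: 1439 of the higher and 788 of the lower genes differed at least 4-fold by the fitted value, and 498 and 89 at least 16-fold. Among the higher genes, 130 had 0 counts in both Tspan8neg MHCIIlo libraries, and 31 of the lower genes had 0 counts in both Tspan8pos MHCIIhi libraries. For such genes the fold is a lower bound, taken against 3 counts over the group of libraries at 0. Bounds and counting intervals cover counting error only. The number of lower genes rested on the Tspan8pos MHCIIhi libraries, falling to 1023 without replicate 1 of that subset. Scaling by upper quartiles moved all log2 fold changes by a median of -0.13 and gave 2205 higher and 2151 lower genes.

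**Figure D2:**
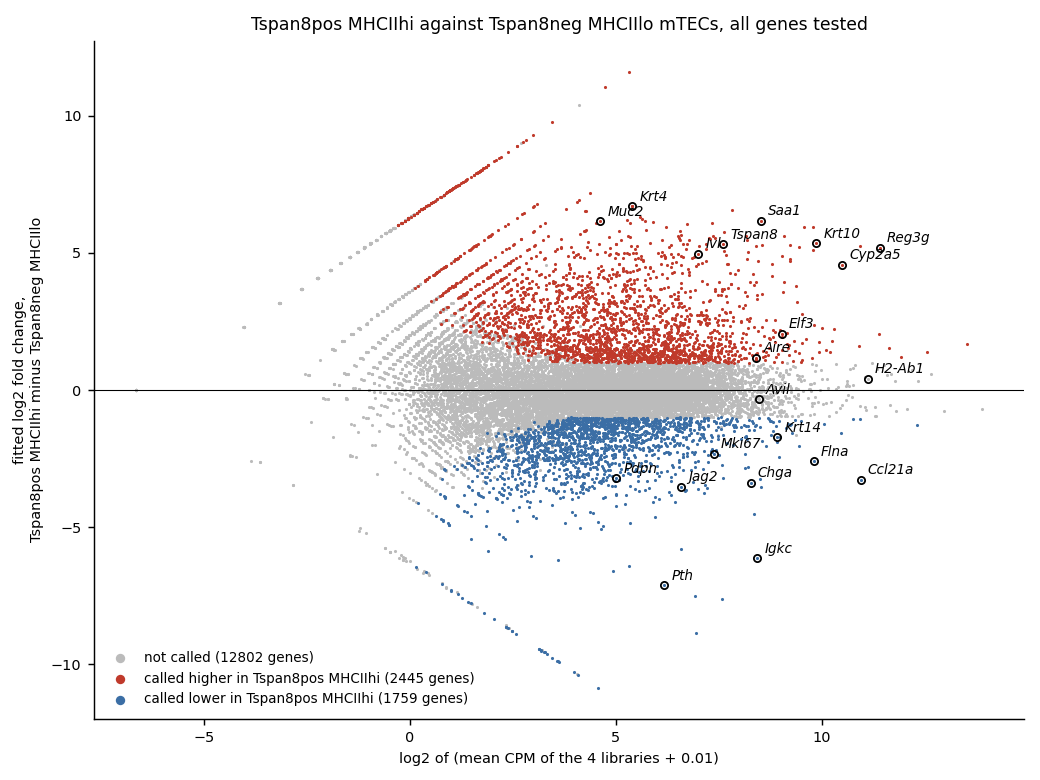
Fitted log2 fold change between Tspan8pos MHCIIhi and Tspan8neg MHCIIlo (y axis) against the mean CPM of the 4 libraries on a log2 scale (x axis), with 1 point for each of 17006 genes. The 2445 higher genes are red, the 1759 lower genes blue, circled genes are named in the text, and the slanted lines of points at the left and edges are genes with few or 0 counts in 1 subset, whose fitted values are not bounds.

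The other 2 subsets show where the called genes reached their peak. Of the 2445 higher genes, 1192 (48.8%) had their highest mean in Tspan8pos MHCIIhi itself, 664 (27.2%) in Tspan8pos MHCIIlo and 589 (24.1%) in Tspan8neg MHCIIhi. Of the 1759 lower genes, 1546 (87.9%) had their highest mean in Tspan8neg MHCIIlo, and 924 (52.5%) their lowest in Tspan8pos MHCIIhi. Among the genes not called, the highest mean fell in Tspan8neg MHCIIlo for 28.5% and in Tspan8pos MHCIIhi for 13.8%. The lowest mean of the higher genes fell in Tspan8neg MHCIIlo for 74.1%. Because the calls were made from these same libraries, a higher gene could not peak in Tspan8neg MHCIIlo, nor a lower gene in Tspan8pos MHCIIhi. The shares of called genes are therefore partly set by the selection, and nothing is read from their distance to those of the genes not called.

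Maturation genes were read next. Aire was at 212 and 205 CPM in Tspan8neg MHCIIlo against 402 and 541 CPM in Tspan8pos MHCIIhi, higher in both Tspan8pos MHCIIhi libraries (log2 fold change 1.18, SE 0.24, adjusted p = 0.00237), but Tspan8neg MHCIIhi held 2658 and 2476 CPM and Tspan8pos MHCIIlo 14.8 and 35.4 CPM. Cd80, which encodes a costimulatory ligand for T cells, rose from 15.4 and 6.84 to 56.4 and 45.5 CPM (log2 fold change 2.22, SE 0.28, adjusted p = 8.31e-05), and it too was highest in Tspan8neg MHCIIhi, at 162 and 143 CPM. Without replicate 1 of Tspan8neg MHCIIlo its value was 2.91. Fezf2, a transcription factor that drives another set of tissue antigens, was at 186 and 157 against 299 and 346 CPM and did not reach the fold required (log2 fold change 0.91, SE 0.16, adjusted p = 0.00102). Of 16 genes of the Aire and Fezf2 list, 3 (18.8%) were called higher and 0 lower, against 14.4% and 10.3% of all genes tested. The higher ones were Aire, Prdm1 (log2 2.21), which encodes the repressor Blimp-1, and Sirt1 (1.00), a deacetylase that acts on Aire. Without replicate 2 of Tspan8pos MHCIIhi, 1 of these calls was left, and Aire (0.95) was not called. Sirt1 was not called without that library (1.07), without replicate 1 of Tspan8pos MHCIIhi (0.95) or without replicate 2 of Tspan8neg MHCIIlo (0.72). Fezf2 passed without replicate 1 of either subset (1.05 for Tspan8neg MHCIIlo and 1.03 for Tspan8pos MHCIIhi).

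Antigen presentation genes were read as separate lists. Of 14 MHCII presentation genes, 3 (21.4%) were called higher and 1 (7.14%) lower, against 14.4% and 10.3% of all genes tested. Their median log2 fold change was 0.44 against 0.018 over all genes tested. H2-Oa (1.26), an inhibitor of peptide loading, Ifi30 (1.18), a lysosomal thiol reductase, and the cathepsin Ctss (1.19) rose, and the cathepsin Ctsl fell, from 953 and 605 CPM in Tspan8neg MHCIIlo to 237 and 237 CPM (log2 fold change -1.72, SE 0.19, adjusted p = 3.02e-05). The transactivator Ciita stood at 129 and 131 against 100.2 and 119 CPM and was not called (log2 -0.25, 95% interval -0.54 to 0.047). Of 15 MHC class I and immunoproteasome genes, 0 were called by edgeR and 1 by DESeq2, although 7 had an unadjusted p under 0.05, and the largest fitted value, that of B2m, was 1.00 when rounded and just under the limit. Without replicate 1 of Tspan8neg MHCIIlo, 2 were called higher. Among 12 costimulatory and coinhibitory ligands, Cd80, Tnfsf9 (1.36), the ligand of 4-1BB, and Vtcn1, the inhibitory ligand B7-H4, were called higher. Those 3 are 25% of the list, and 0 were lower. Cd86 was at 2.81 and 3.54 against 4.38 and 5.28 CPM and was not called (95% interval of the log2 fold change -0.18 to 1.37), and neither was Cd40 (0.13 to 0.82).

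Of 23 genes of the RANK, lymphotoxin and NF-kB pathway, 3 (13%) were called higher and 2 (8.7%) lower, near the 14.4% and 10.3% of all genes tested. Tnfrsf11b, which encodes osteoprotegerin, the decoy receptor for RANK ligand, rose from 44.7 and 33.2 to 188 and 156 CPM (log2 fold change 2.15, SE 0.17, adjusted p = 3.16e-06). Tnfsf11, which encodes RANK ligand itself, fell from 8.15 and 25.7 to 0.797 and 1.22 CPM (-4.05, SE 0.69). RANK ligand is a product of T cells and innate lymphoid cells. The thymocyte markers were also lower in Tspan8pos MHCIIhi, and their part in the fall of Tnfsf11 was not tested. The subunit Rel (1.25) and the inhibitor Nfkbia (1.19) were also higher, whereas Relb (0.47), Nfkb2 (0.55) and the receptor gene Tnfrsf11a (0.80) did not pass both limits. Tnfsf11 was not called without replicate 1 of Tspan8pos MHCIIhi (-3.76) and its value was -2.98 without replicate 2 of Tspan8neg MHCIIlo. The number of higher genes was 6 without replicate 1 of Tspan8neg MHCIIlo, with Tnfrsf11a (1.07) among them.

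Among the gene lists, the cornified envelope genes of stratified epithelium held the largest share of higher calls, 97.4%. The lists were written with earlier results of these data known. Krt10, the type I keratin of suprabasal epidermis, was at 33.1 and 54.9 CPM in Tspan8neg MHCIIlo against 1955 and 1687 CPM in Tspan8pos MHCIIhi. Each Tspan8pos MHCIIhi library was above each Tspan8neg MHCIIlo library, by 41.1-fold in the fit (log2 fold change 5.36, SE 0.26, adjusted p = 1.34e-07). Krt1, its usual partner, stood at 4.21 and 17.9 against 413 and 353 CPM. Ivl, which encodes involucrin, a protein of the cornified envelope, rose from 9.27 and 6.60 to 286 and 210.5 CPM (log2 fold change 4.98, SE 0.28, adjusted p = 3.08e-07). Both Krt10 and Ivl were low in Tspan8neg MHCIIhi as well, at 57.4 and 82.8 CPM and 9.15 and 5.51 CPM, and high in Tspan8pos MHCIIlo, at 1629 and 1632 CPM and 366 and 276 CPM.

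Of 39 cornified envelope genes tested, 38 were called higher and 0 lower, with a median log2 fold change of 4.57. Rptn (repetin) reached 4019 and 3593 CPM from 77.5 and 120.0 CPM (log2 fold change 5.26, SE 0.22, adjusted p = 8.17e-08), and Flg (filaggrin) 297 and 268 CPM from 7.30 and 8.49 CPM (5.15, SE 0.21). Sbsn (log2 4.59), Dmkn (5.09) and Krtdap (4.72), secreted proteins of differentiating keratinocytes, rose alike. Lor (loricrin) was spread wider, at 3.37 and 16.5 against 86.2 and 138 CPM, and was called higher. The member that was not called was Sprr2b, one of a family of small proline-rich proteins so alike in sequence that reads may have been split among them. The late cornified envelope genes were barely detected. Of 12 tested, 2 (16.7%) were called higher, Lce1f and Lce1g, near the 14.4% of all genes tested. In both Tspan8neg MHCIIlo libraries, 6 had 0 counts.

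Keratins followed the same line, with 32 of 44 called higher and 1 lower. The higher ones included Krt16 (4.71), a keratin of activated epidermis, Krt79 (5.50), Krt80 (4.52) and Krt23 (5.04), and also Krt4, the keratin of esophagus and other non-cornified linings, which rose from 0.843 and 0.707 to 94.6 and 71.7 CPM (log2 fold change 6.71, SE 0.31, adjusted p = 1.09e-07). Krt14, a keratin of the basal layer, was the lower one, at 927 and 558 against 225 and 226 CPM (log2 fold change -1.72, SE 0.23, adjusted p = 1.40e-04). Its partner Krt5 was not called, at 2038 and 1369.8 against 1518 and 1460.3 CPM (95% interval of the log2 fold change -0.56 to 0.18), although Tspan8neg MHCIIhi held only 272 and 242 CPM. Krt8, a keratin of simple epithelium, was at 2115 and 1694 against 3343 and 3174 CPM and stayed under the fold limit (log2 0.77).

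Enzymes and adhesion genes of the barrier moved with the keratins. Of 23 barrier lipid enzymes, 20 were called higher and 0 lower, among them the epidermal lipoxygenases Aloxe3 (4.09) and Alox12b, from 3.09 and 6.37 to 124 and 95.5 CPM, the ceramide synthase Cers3 (5.05) and the lipid transporter Abca12 (4.88). Fa2h, a fatty acid hydroxylase, had 0 counts in Tspan8neg MHCIIlo and 14.5 and 17.3 CPM in Tspan8pos MHCIIhi, at least 41.3-fold higher. Of 34 kallikrein, Spink and Serpinb genes, a mixed group that includes proteases that shed corneocytes and protease inhibitors, 26 were called higher and 0 lower. Among the higher were Klk13 (5.79), Klk7 (5.24) and Serpinb2, which rose from 30.6 and 28.5 to 1345 and 982 CPM. Among 18 desmosome genes, 11 were called higher and 0 lower. Evpl, Ppl and Cdsn, which are among these, were also counted with the cornified envelope genes. Dsp, which encodes desmoplakin, was one of the most abundant of all called genes, at 1147 and 730.4 against 3196 and 2516 CPM (log2 fold change 1.61, SE 0.20, adjusted p = 6.56e-05), and Jup (1.88) and Perp (2.13) rose with it. Of 15 claudins, the sealing proteins of tight junctions, 7 were called higher, such as Cldn4, at 474 and 415 against 2278 and 1871 CPM (log2 fold change 2.22, SE 0.20, adjusted p = 6.09e-06), and 1 lower, Cldn9. The Ly6 superfamily, many of whose members mark keratinocytes or gut, had 15 of 28 genes higher and 3 lower, with Ly6d (3.58), Lypd3 (4.58) and Slurp1 (6.09) among the higher.

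**Figure D3:**
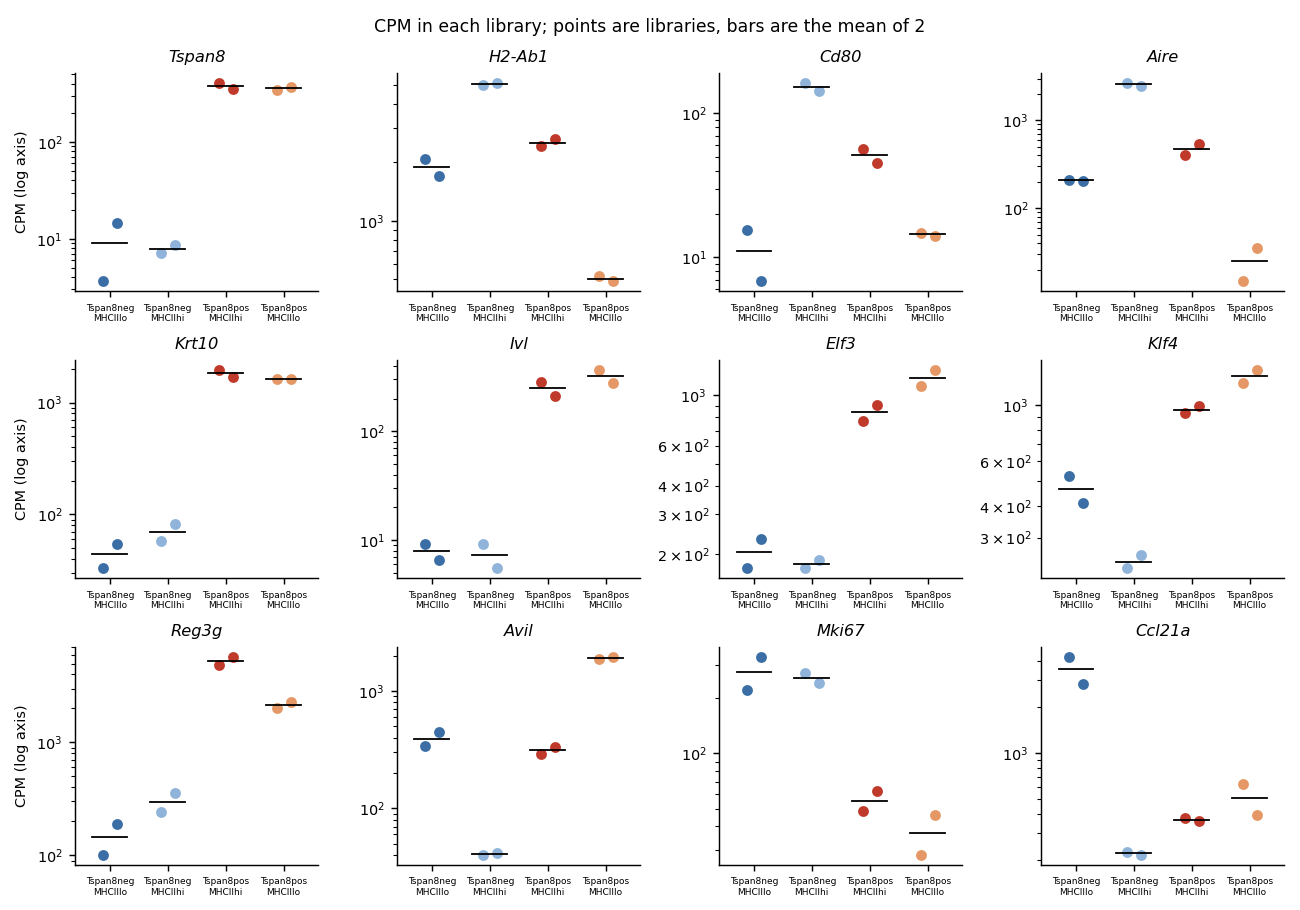
CPM on a log axis (y axis) of 12 genes in the 8 libraries, grouped by subset along the x axis, where each point is a library and each bar the mean of 2. Krt10, Ivl, Elf3 and Reg3g are higher in both Tspan8pos subsets than in both Tspan8neg ones, Aire and Cd80 peak in Tspan8neg MHCIIhi, Avil in Tspan8pos MHCIIlo, and Ccl21a in Tspan8neg MHCIIlo.

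Transcription factors of terminal epithelial differentiation were mostly higher. Of 27 such factors, 22 were called higher and 0 lower, with a median log2 fold change of 2.05. Zfp750 and Ovol1, regulators of late epidermal differentiation, rose from 53.1 and 45.5 to 366 and 336 CPM and from 19.7 and 18.9 to 235 and 174 CPM. The grainyhead factors Grhl1 (2.75) and Grhl3 (3.16), Hopx (3.04), Cebpa (2.19) and the vitamin D receptor gene Vdr (2.42) were in the same group. Ehf, Grhl2 and Ovol2 were among those not called.

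The Ets family, whose members bind a GGAA core, was divided. Of 24 tested, 6 (25%) were called higher and 3 (12.5%) lower, against 14.4% and 10.3% of all genes tested. Elf3, an epithelial Ets factor, rose from 173 and 232 to 775 and 908 CPM (log2 fold change 2.05, SE 0.17, adjusted p = 3.72e-06). Elf5 was near the floor in Tspan8neg MHCIIlo, at 0 and 1.18 against 9.76 and 9.75 CPM, and Spdef, a factor of goblet cells, was at 0.281 and 3.77 against 13.7 and 22.8 CPM. Both were called higher, but Spdef was not without replicate 2 of Tspan8pos MHCIIhi (2.67). Ehf was at 199 and 179 against 346 and 298 CPM and stayed below the fold limit (log2 fold change 0.77, SE 0.14, adjusted p = 8.28e-04). Spib, known from Microfold cells and lymphocytes, was at 290.4 and 396 against 387 and 445 CPM and was not called (95% interval of the log2 fold change -0.078 to 0.63). Ets1, a factor of lymphoid and endothelial cells, fell from 177 and 256 to 35.1 and 37.6 CPM (log2 fold change -2.57, SE 0.19, adjusted p = 1.93e-06), and Fli1 (-4.25), also of blood and endothelial cells, and the repressor Erf (-2.04) fell too. Lower calls in the family numbered 5 without replicate 2 of Tspan8neg MHCIIlo. The markers of thymocytes and endothelium, which express Ets1 and Fli1, were higher in Tspan8neg MHCIIlo as given above, and the part of such cells in these falls was not tested.

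Among 14 Kruppel-like factors, Klf4 and Klf5 were called higher and 0 lower, a higher share of 14.3% that was near the 14.4% of all genes tested. Klf4, needed for the epidermal barrier, was at 525 and 412 against 931 and 993 CPM, just above the fold limit (log2 fold change 1.04, SE 0.15, adjusted p = 1.73e-04), against 227 and 255 CPM in Tspan8neg MHCIIhi. Klf5 was at 84.0 and 54.0 against 199 and 145 CPM (1.32, SE 0.22). Klf4 was under the limit without replicate 2 of Tspan8neg MHCIIlo (0.88) or replicate 2 of Tspan8pos MHCIIhi (1.00). Klf1 did not pass the filter on low counts.

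Promoter sequences are shown for Tspan8, Ivl and Krt10, the sort gene and the keratinocyte genes above, and for Ccl21a, the abundant gene of the opposite subset. They are the 250 bases before the annotated start in RefSeq's GRCm38.p6 table, written 5′ to 3′ on the gene's own strand, with capitals at matches to the Ets letters GGAAGT or the Klf letters CACACCC on either strand.
Tspan8: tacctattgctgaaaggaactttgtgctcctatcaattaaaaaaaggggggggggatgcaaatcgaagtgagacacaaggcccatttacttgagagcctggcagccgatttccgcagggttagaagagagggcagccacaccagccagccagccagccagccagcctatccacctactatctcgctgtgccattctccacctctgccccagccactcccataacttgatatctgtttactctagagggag
Ivl: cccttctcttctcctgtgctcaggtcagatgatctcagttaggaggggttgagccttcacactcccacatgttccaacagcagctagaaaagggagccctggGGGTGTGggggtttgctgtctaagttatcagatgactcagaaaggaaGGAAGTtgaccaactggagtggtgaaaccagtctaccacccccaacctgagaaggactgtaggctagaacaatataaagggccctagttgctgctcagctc
Krt10: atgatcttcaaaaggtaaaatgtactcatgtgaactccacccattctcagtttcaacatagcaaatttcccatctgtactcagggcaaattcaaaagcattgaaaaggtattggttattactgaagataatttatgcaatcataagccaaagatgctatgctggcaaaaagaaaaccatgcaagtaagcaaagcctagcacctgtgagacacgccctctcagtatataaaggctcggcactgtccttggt
Ccl21a: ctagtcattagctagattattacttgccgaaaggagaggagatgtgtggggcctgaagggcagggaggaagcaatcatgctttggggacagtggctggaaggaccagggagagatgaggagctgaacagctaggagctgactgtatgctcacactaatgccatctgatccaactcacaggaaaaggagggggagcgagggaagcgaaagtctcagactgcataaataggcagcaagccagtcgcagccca
These windows lie at chr10:115817034-115817283 on the plus strand for Tspan8 and, all on the minus strand, at chr3:92573736-92573985 for Ivl, chr11:99389365-99389614 for Krt10 and chr4:42773992-42774241 for Ccl21a. The Ivl window held 1 Ets match, 101 bases before the start, and 1 Klf match, 148 bases before it, and the 2 do not overlap. The windows of Tspan8, Krt10 and Ccl21a held these letters nowhere, which says only that they are absent from these bases. Of all 27025 promoters in the table, 20% held the Ets letters and 6.85% the Klf letters. A promoter was matched by symbol for only 73.3% of the genes tested, too small a share for a comparison over gene sets, so that such a comparison is void. For the record, the Ets letters stood in 20.2% of the matched promoters of higher genes, 19.5% of those of lower genes and 22.9% of those not called, and the Klf letters in 9.07%, 8.67% and 7.06%, from which nothing is read.

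Gut and liver genes formed the next large group. Of 43 enterohepatic genes, 30 were called higher and 1 lower, with a median log2 fold change of 2.65. Reg3g, an antimicrobial lectin of the small intestine, was among the most abundant higher genes, at 101 and 188 against 4848 and 5726 CPM (log2 fold change 5.19, SE 0.30, adjusted p = 3.24e-07). Lgals4, a gut galectin, rose from 35.1 and 34.0 to 350.1 and 392 CPM, and Slc5a1, the intestinal glucose transporter, from 3.09 and 5.66 to 147 and 117 CPM. The gut and liver regulators Hnf4a (2.47) and Hnf4g (3.31) were higher, whereas Cdx2, a factor of the intestine, was at 1.12 and 2.36 against 2.59 and 1.02 CPM and was not called. Of the plasma proteins of liver, Apoa1 was at 4.21 and 15.8 against 68.9 and 85.9 CPM and was called higher. The lower gene was Anpep (-1.12), an aminopeptidase of the brush border and of myeloid cells, which was not called without replicate 1 (-1.22) or replicate 2 (-1.01) of Tspan8pos MHCIIhi.

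Mucus and airway genes were also mostly higher. Of 36 goblet, mucin and Ceacam genes, 25 were called higher and 0 lower (median log2 fold change 3.38). Muc5b, a gel-forming airway mucin, rose from 4.49 and 8.49 to 319 and 325 CPM (log2 fold change 5.60, SE 0.29, adjusted p = 1.77e-07), and Muc2, its intestinal counterpart, from 1.40 and 0 to 42.2 and 54.0 CPM. Agr2, a disulfide isomerase needed to fold mucins, was at 0.562 and 1.41 against 74.3 and 78.4 CPM and was called higher. Tff3 (5.64), secreted with mucus, and the pioneer factor Foxa1, from 10.1 and 21.9 to 86.2 and 94.1 CPM, rose, while Foxa2 was at 0.562 and 3.77 against 1.99 and 3.66 CPM and was not called. Fcgbp, a mucus protein, was already high in Tspan8neg MHCIIlo, at 4035 and 2654 against 8737 and 8679.7 CPM (log2 fold change 1.38, SE 0.17, adjusted p = 5.87e-05). Airway secretory genes included Scgb1a1, which rose from 1.97 and 4.01 to 221 and 195 CPM, and the surfactant protein gene Sftpa1, with counts of 0 and 2 in the Tspan8neg MHCIIlo libraries against 38.6 and 43.7 CPM, a ratio of 160.5 (95% counting interval 44.1 to 1329).

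Acute phase and antimicrobial genes were higher in 21 of 28 cases and lower in 1. Saa1 and Saa3, serum amyloids, rose from 5.34 and 14.1 to 665 and 787 CPM and from 19.1 and 28.5 to 1319 and 1665 CPM. Saa2 had counts of 1 and 1 in Tspan8neg MHCIIlo, and its ratio was 106 (95% counting interval 29.1 to 882), with the reserve that Saa1 and Saa2 are near copies. Pigr, which carries immunoglobulin A across mucosa, rose from 55.9 and 76.9 to 994 and 1032 CPM (log2 fold change 3.93, SE 0.21, adjusted p = 2.25e-07), in the direction opposite to the immunoglobulin genes. Ltf, lactoferrin, was uneven in Tspan8neg MHCIIlo, at 8.71 and 47.2 against 409 and 419 CPM, and was called higher. Crp, C-reactive protein, fell from 18.8 and 11.6 to 4.58 and 5.69 CPM (-1.55, SE 0.37), with no call without replicate 1 of Tspan8neg MHCIIlo (-1.15), replicate 1 (-1.39) or replicate 2 (-1.71) of Tspan8pos MHCIIhi.

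Microfold genes, of the epithelial cells that sample antigen over lymphoid follicles, were higher in 11 of 15 cases and lower in 0. Gp2, the Microfold receptor for bacterial pili, rose from 127 and 192 to 699.6 and 768 CPM (log2 fold change 2.20, SE 0.22, adjusted p = 1.54e-05), and Clu from 564 and 518 to 1953 and 1823 CPM. Pglyrp1 (3.56), Ctsh (2.73) and Tnfaip2 (1.53) were also higher. Ionocyte genes were higher in 8 of 14 cases and lower in 1, Kcnma1 (-1.03). The higher ones included the chloride channel gene Cftr, from 7.02 and 9.43 to 119 and 90.8 CPM, and Foxi1, the factor that specifies ionocytes, at 0.281 and 1.41 against 11.6 and 8.53 CPM. Cytochrome P450 genes, among which are drug- and steroid-metabolising enzymes of liver, airway and skin, were higher in 27 of 53 cases and lower in 1. Cyp2a5 reached 2980.1 and 2509 CPM from 77.5 and 152 CPM (4.58, SE 0.27), and Cyp2b19, an enzyme of keratinocytes, 699 and 766 from 12.6 and 24.0 CPM. Of 14 milk, secretoglobin and urinary protein genes, 8 were higher and 0 lower, and 5 without replicate 1 of Tspan8pos MHCIIhi. Csn2, the casein that mTECs express under Aire, was at 30.1 and 53.8 against 238 and 254 CPM, yet at 682 and 847 CPM in Tspan8neg MHCIIhi.

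**Figure D4:**
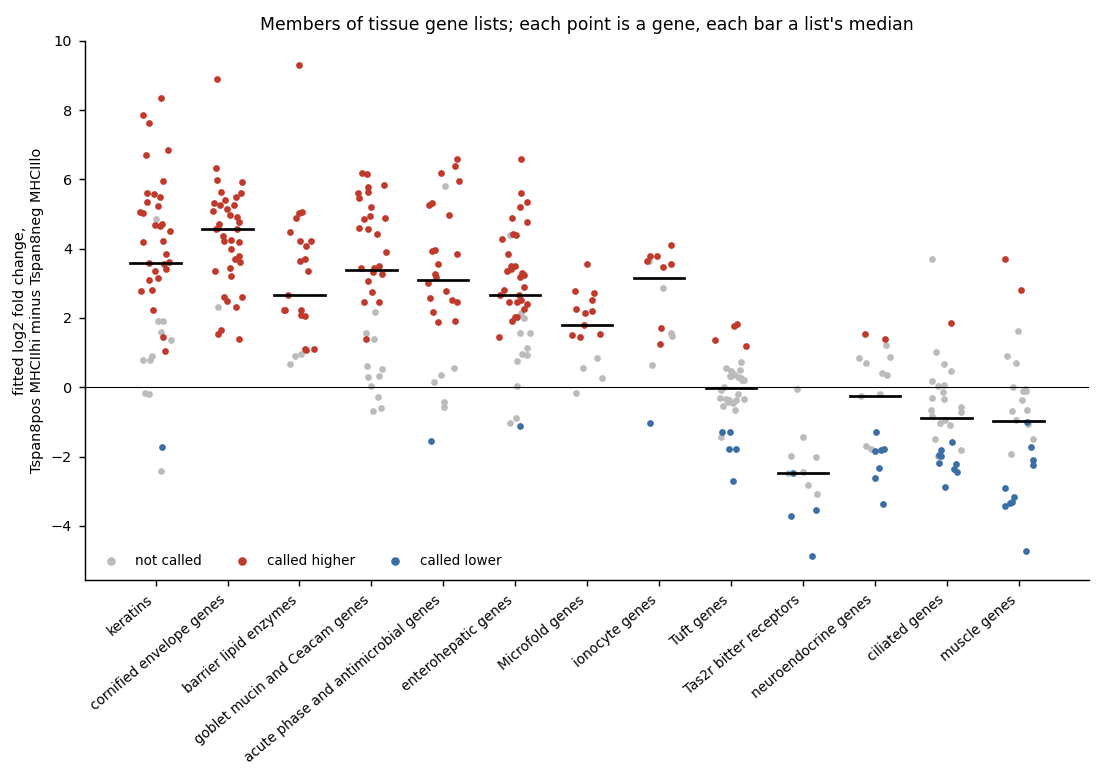
Fitted log2 fold change between Tspan8pos MHCIIhi and Tspan8neg MHCIIlo (y axis) of the tested members of 13 tissue gene lists (x axis), where each point is a gene coloured by its call and each black bar the list's median. Medians run from 4.57 for the cornified envelope genes to -2.48 for the bitter receptors, and that of the Tuft genes is -0.03.

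Tuft genes were called in both directions. Tuft cells are chemosensory epithelial cells that signal through taste receptors and Trpm5 and make Il25. Of 34 Tuft genes, 4 (11.8%) were called higher and 5 (14.7%) lower, near the 14.4% and 10.3% of all genes tested, with a median log2 fold change of -0.032. Avil, an actin-binding Tuft marker, was at 339.9 and 445 against 289 and 336 CPM, with no call (95% interval of the log2 fold change -0.66 to -0.0028), against 40.1 and 41.9 CPM in Tspan8neg MHCIIhi and 1873 and 1952 CPM in Tspan8pos MHCIIlo. Trpm5, the cation channel, lay at 342 and 474 against 269 and 335 CPM (interval -0.80 to -0.065), Alox5 at 76.1 and 102 against 60.9 and 76.8 CPM (interval -0.81 to 0.058) and Dclk1 at 98.6 and 133 against 161 and 178 CPM (interval 0.18 to 0.92). Trpm5 was likewise at 42.0 and 45.4 CPM in Tspan8neg MHCIIhi and 2046 and 2107 CPM in Tspan8pos MHCIIlo, so that both subsets held these 2 Tuft transcripts at levels between those of the other subsets.

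The lower Tuft genes included some components of taste signalling, while others, such as Gng13, Itpr3, Tas1r1, Tas1r3 and Trpm5, were not called. Plcb2 fell from 314 and 464 to 141 and 178 CPM (log2 fold change -1.29, SE 0.20, adjusted p = 3.91e-04), Gnb3 from 237 and 320.2 to 69.3 and 91.2 CPM (log2 fold change -1.80, SE 0.18, adjusted p = 1.83e-05), and Gnat3, gustducin, from 96.3 and 125 to 31.5 and 33.1 CPM (-1.78, SE 0.31). Rgs21 (-2.69) and Il25, the Tuft cytokine, at 29.2 and 31.8 against 12.1 and 12.6 CPM, fell as well. Pou2f3, the Tuft master regulator, rose from 57.0 and 77.6 to 156 and 151 CPM (log2 fold change 1.18, SE 0.16, adjusted p = 1.16e-04), as did Hpgds (1.36), Gfi1b (1.82) and Siglecf. Pou2f3 is also active in skin. Without replicate 1 of Tspan8neg MHCIIlo, 2 higher calls were left, Pou2f3 being just under the limit (1.00) and Siglecf losing its call, as it did without any library but replicate 2 of Tspan8neg MHCIIlo. Without replicate 1 of Tspan8pos MHCIIhi, 3 lower calls were left, and Gnat3 (-1.72 and -1.81) and Il25 (-1.26 and -1.32) had no call without replicate 1 or without replicate 2 of that subset. Plcb2 was just under the limit without replicate 2 of Tspan8neg MHCIIlo (-0.98). Bitter receptors, the Tas2r genes, were called lower in 4 of 12 cases and higher in 0, and lower in 2 without replicate 1 or without replicate 2 of Tspan8pos MHCIIhi. Their fitted values were all negative, and their counts were low, with Tas2r105 at 12.1 and 9.67 against 0.199 and 1.63 CPM.

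Muscle, neuroendocrine and ciliated cell lists held more lower than higher calls. Of 26 muscle genes, 10 (38.5%) were called lower and 2 (7.69%) higher, against 10.3% and 14.4% of all genes tested. The higher ones were Tnni2 and Myh3. Myog, the myogenic factor, fell from 26.4 and 25.0 to 1.59 and 3.45 CPM, and Acta1, skeletal actin, from 52.2 and 39.8 to 5.58 and 6.71 CPM (-2.90, SE 0.30). Of 19 neuroendocrine genes, 7 (36.8%) were called lower and 2 (10.5%) higher, Resp18 and Ddc, while Insm1 was not called. Fewer were lower without replicate 1 of Tspan8pos MHCIIhi. Chga, chromogranin A, was at 490.1 and 637 against 36.8 and 71.3 CPM (log2 fold change -3.38, SE 0.27, adjusted p = 3.07e-06). Of 30 ciliated cell genes, 9 (30%) were called lower and 1 (3.33%) higher, Dnah9. The lower calls were fewer without replicate 2 of Tspan8neg MHCIIlo or without replicate 2 of Tspan8pos MHCIIhi. Trp73 (-2.87) and Ccno (-2.44), which act when cilia are formed, fell, while Foxj1, the factor of motile cilia, was at 75.8 and 62.5 against 81.5 and 109 CPM and was not called (95% interval 0.042 to 0.88).

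**Figure D5:**
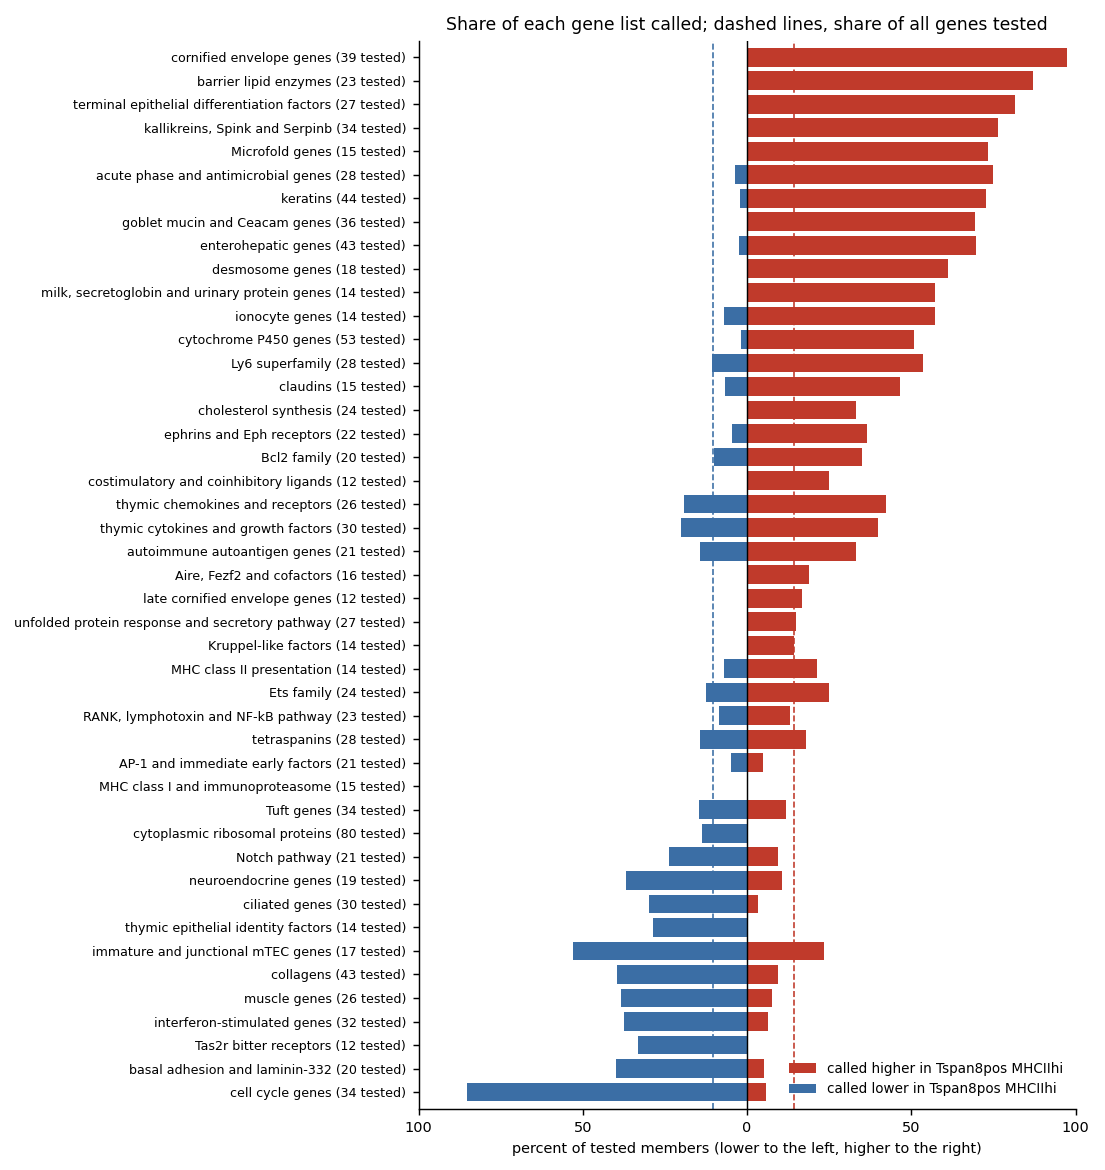
Percent of the tested members of each gene list called higher (red, to the right) or lower (blue, to the left) in Tspan8pos MHCIIhi than in Tspan8neg MHCIIlo. Dashed lines give the same shares of all genes tested, 14.4% higher and 10.3% lower, and the list shares run from 97.4% higher for cornified envelope genes to 85.3% lower for cell cycle genes.

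Genes of immature and junctional mTECs were lower in 9 of 17 cases and higher in 4. Ccl21a, the chemokine that draws positively selected thymocytes into the medulla, was one of the most abundant lower genes, at 4276 and 2832 CPM in Tspan8neg MHCIIlo against 377 and 359 CPM in Tspan8pos MHCIIhi. Both Tspan8neg MHCIIlo libraries lay far above every other library, with a fitted fold of 9.65 (log2 fold change -3.27, SE 0.24, adjusted p = 1.59e-06). Pdpn, podoplanin, fell from 77.2 and 39.1 to 5.97 and 6.50 CPM (log2 fold change -3.21, SE 0.39, adjusted p = 6.79e-05), and Cxcl12 from 62.1 and 58.9 to 4.78 and 7.72 CPM (-3.27, SE 0.24). Cxcl12 and Pdpn are also made by stromal cells. Fibroblast and endothelial markers were higher in Tspan8neg MHCIIlo than in Tspan8pos MHCIIhi, but the fibroblast sum was highest in Tspan8neg MHCIIhi, at 503 and 566 CPM. The part of stromal cells in these falls was not tested. Igfbp5 (-1.58) and Lifr (-2.75) were lower too. The higher members included Krt15, Ly6a and Plet1, of which Plet1 stood at 103 and 99.7 against 542 and 434 CPM (2.27, SE 0.19). Ccl19, which shares its receptor with Ccl21a, was at 72.7 and 57.5 against 50.4 and 64.2 CPM and was not called (95% interval of the log2 fold change -0.62 to 0.25).

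Genes of attachment to the basement membrane were lower in 8 of 20 cases and higher in 1, Krt15. Itgb4, the integrin of hemidesmosomes, fell from 657 and 521 to 164 and 163 CPM (log2 fold change -1.85, SE 0.15, adjusted p = 3.76e-06), Lamb3, a chain of laminin-332, from 271 and 192 to 51.4 and 48.6 CPM (-2.21, SE 0.25), and Dst from 922 and 601 to 202 and 205 CPM (-1.90, SE 0.19). Trp63, the master factor of basal epithelium, was not called (-0.48). Of 43 collagens, 17 were lower and 4 higher, and 1 was higher without replicate 1 of Tspan8pos MHCIIhi. The basement membrane chains Col4a1 and Col4a2 fell from 1117 and 567 to 162 and 149 CPM and from 635 and 349 to 72.3 and 64.8 CPM, and Col6a1 from 859 and 493 to 64.9 and 51.8 CPM (-3.53, SE 0.28). Flna, an actin crosslinker, was among the most abundant lower genes, at 1774 and 1280.0 against 274 and 229 CPM (-2.60, SE 0.21).

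Of 14 factors of early thymic epithelial development, 4 (28.6%) were lower and 0 higher, against 10.3% and 14.4% of all genes tested. The lower ones were Eya1 (-1.37), Pax1 (-1.38), Isl1 (-1.26) and Hoxa3 (-3.82). Hoxa3 was not called without replicate 1 of Tspan8pos MHCIIhi (-3.08), and its value was -5.31 without replicate 2. Foxn1, the master factor of thymic epithelium, was at 67.4 and 60.1 against 121 and 129 CPM, just below the fold limit (log2 fold change 0.97, SE 0.14, adjusted p = 1.72e-04), and passed it without replicate 1 of Tspan8neg MHCIIlo (1.07) or of Tspan8pos MHCIIhi (1.03). In the Notch pathway, 5 of 21 genes (23.8%) were called lower and 2 (9.52%) higher, against 10.3% and 14.4% of all genes tested. Fewer were called lower without replicate 1 or without replicate 2 of Tspan8pos MHCIIhi. Jag2, a ligand, fell from 186 and 164 to 14.3 and 16.1 CPM (log2 fold change -3.52, SE 0.16, adjusted p = 1.09e-07), while the feedback gene Nrarp rose from 17.4 and 14.9 to 65.9 and 79.2 CPM (2.17, SE 0.24).

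Proliferation genes held the largest share of lower calls among the lists. Of 34 cell cycle genes, 29 were called lower and 2 higher, with a median log2 fold change of -2.25. Mki67, the marker of cycling cells, fell from 220.2 and 333 to 48.4 and 62.2 CPM (log2 fold change -2.32, SE 0.24, adjusted p = 2.32e-05), Mcm6, of the replicative helicase, from 119 and 145 to 25.3 and 28.6 CPM (-2.29, SE 0.18), and Cdk1 from 26.1 and 39.8 to 5.78 and 5.89 CPM (-2.50, SE 0.27). The higher ones were the inhibitors Cdkn1a, at 218 and 202 against 717 and 709.9 CPM (log2 fold change 1.76, SE 0.12, adjusted p = 1.04e-06), and Cdkn2b, at 13.8 and 18.9 against 157 and 171 CPM (3.32, SE 0.17). In Tspan8neg MHCIIhi, Mki67 was at 273 and 239 CPM, within the range of the Tspan8neg MHCIIlo libraries, and Cdk1 at 58.0 and 58.4 CPM, above them. Thymocytes also cycle, and their part in the lower calls was not tested. Thymocyte markers were higher in Tspan8neg MHCIIlo, in replicate 2 more than in replicate 1. Without that replicate, 26 of the cell cycle genes were called lower.

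Of 26 chemokines and chemokine receptors, 11 (42.3%) were called higher and 5 (19.2%) lower, against 14.4% and 10.3% of all genes tested. The lower calls were fewer without replicate 1 of Tspan8pos MHCIIhi. Chemoattractants of neutrophils rose, such as Cxcl2, from 18.5 and 27.3 to 159 and 153 CPM (2.76, SE 0.18), and Cxcl5, with counts of 0 and 3 in Tspan8neg MHCIIlo against 39.2 and 35.6 CPM, a ratio of 97.3 (95% counting interval 33.0 to 474). Ccl5 (2.58) and Cxcl16 (1.28) were higher, and Cxcl14, at 33.1 and 23.8 against 1.99 and 4.47 CPM, was called lower. Ccl22, a ligand of Ccr4, was uneven between the replicates of Tspan8neg MHCIIlo and was not called, at 34.9 and 40.6 CPM in Tspan8pos MHCIIhi and 187 and 241 CPM in Tspan8neg MHCIIhi, and passed without replicate 2 of Tspan8neg MHCIIlo (1.24). Among 30 cytokines and growth factors, 12 (40%) were higher and 6 (20%) lower, with fewer lower without replicate 1 or without replicate 2 of Tspan8pos MHCIIhi. The ligands of the epidermal growth factor receptor Areg, from 3.09 and 6.13 to 69.1 and 69.3 CPM, and Tgfa (2.83) rose, as did Il1rn, from 56.2 and 41.5 to 619 and 440.3 CPM (log2 fold change 3.44, SE 0.22, adjusted p = 5.35e-07), and the alarmin Il33, from 6.46 and 3.06 to 37.8 and 30.3 CPM. Tgfb1 fell from 52.2 and 54.0 to 16.5 and 13.6 CPM (-1.82, SE 0.19).

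Interferon-stimulated genes were lower in 12 of 32 cases (37.5%) and higher in 2 (6.25%), against 10.3% and 14.4% of all genes tested. Fewer were lower without replicate 1 of Tspan8neg MHCIIlo or replicate 2 of Tspan8pos MHCIIhi. Mx2 (-2.07), Gbp3 (-1.71), Ifit3 (-1.64) and Oas2 (-1.61) fell, and Oasl1 (1.94) and Isg20 (1.99) rose. In the Bcl2 family of cell death regulators, 7 of 20 genes (35%) were higher and 2 (10%) lower, the lower share near the 10.3% of all genes tested. Bcl2 itself fell from 45.2 and 49.0 to 7.37 and 7.72 CPM (log2 fold change -2.64, SE 0.28, adjusted p = 2.28e-05), and Bcl2l1, which encodes Bcl-xL, rose from 30.1 and 43.4 to 113 and 122 CPM (1.67, SE 0.17). Of 24 cholesterol synthesis genes, 8 (33.3%) were higher, for example Hmgcs1 (1.27), and 0 lower, against 14.4% and 10.3% of all genes tested. Among cytoplasmic ribosomal protein genes, 79 of 80 had a negative log2 fold change, with a median of -0.81. Of these genes, 11 (13.8%) passed the fold limit and were called lower, near the 10.3% of all genes tested. This number depended on replicate 1 of Tspan8neg MHCIIlo.

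Immunoglobulin genes led the folds on the lower side. Of 35 immunoglobulin gene segments tested, 29 were called lower and 0 higher, and together they held 1927 and 3377 CPM in Tspan8neg MHCIIlo against 50.6 and 77.0 CPM in Tspan8pos MHCIIhi. Igkc, the kappa constant region, was at 499 and 857 against 5.97 and 13.2 CPM, Igha at 108 and 373 against 0.199 and 2.44 CPM, and Jchain, of secreted immunoglobulin, at 63.8 and 93.6 against 0.797 and 1.02 CPM (-6.40, SE 0.52). Variable segments are near copies of each other, and their separate values are uncertain. Of 12 T cell receptor segments, 10 were lower and 0 higher. Cd3e, a chain of the T cell receptor complex, was at 34.8 and 121 against 2.59 and 2.84 CPM, and 12 of 15 thymocyte markers were called lower, 6 without replicate 1 of Tspan8pos MHCIIhi. Selp, the P-selectin of endothelium and platelets, was at 291 and 83.9 against 4.98 and 1.63 CPM, and was lower together with 5 of 8 endothelial markers, which numbered 2 without replicate 1 and 3 without replicate 2 of Tspan8pos MHCIIhi. Fibroblast markers were lower in 5 of 10 cases, and in 3 without replicate 2 of Tspan8pos MHCIIhi. Ptprc, which encodes CD45, the marker excluded by the sort gate, was at 89.3 and 205 against 17.3 and 25.0 CPM and was called lower. Pth, which encodes parathyroid hormone and was not among the markers of other cells, was at 134 and 153 against 1.39 and 0.610 CPM and was called lower. Which cells its transcripts came from was not tested.

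Among the remaining genes with the largest folds on the higher side, Prn, a readthrough of the prion protein locus, had 0 counts in Tspan8neg MHCIIlo and 59.9 and 99.2 CPM in Tspan8pos MHCIIhi, at least 206-fold higher. Cyp2d9 likewise had 0 counts against 22.1 and 21.7 CPM, at least 57.0-fold higher. Trex2, a nuclease of keratinocytes, had counts of 0 and 2 against 39.0 and 29.3 CPM, a ratio of 133 (95% counting interval 36.6 to 1106), and Nts, neurotensin, counts of 2 and 1 against 40.4 and 36.0 CPM, a ratio of 99.4 (33.8 to 484). Sbpl had counts of 2 and 0 against 27.7 and 38.2 CPM (ratio 128, interval 35.2 to 1064). Wfdc21, from 0.281 and 1.18 to 81.3 and 85.9 CPM, the esophageal envelope gene Crnn, from 0.562 and 1.65 to 86.6 and 102 CPM, and the glutathione transferase Gsta1, from 0.843 and 1.65 to 96.0 and 99.2 CPM, completed that set. By abundance the higher genes were led by the noncoding transcripts Gm43305 (1.67) and Neat1 (1.55), besides Fcgbp, Gm42427 (1.22) and Gm42031 (2.05). Gm43305 was at 5716 and 5501 against 18257 and 17547 CPM and highest in Tspan8neg MHCIIhi, at 30569 and 28789 CPM. The most abundant lower genes besides Ccl21a and Flna were the mitochondrial genes mt-Co1, at 7337 and 6931 against 3117 and 2805 CPM (log2 fold change -1.27, SE 0.13, adjusted p = 2.20e-05), and mt-Cytb (-1.04), the pseudogenes Gm28661 (-1.07) and Gm28437 (-1.24), the noncoding Gm26917 (-1.58), the ribosomal Rps2 (-1.08), Sbno2 (-1.13), a regulator of inflammatory signalling, and the cytokine signalling inhibitor Socs3 (-2.03). All 13 mitochondrially encoded protein genes had a negative log2 fold change, with a median of -0.96, and 2 of them were called lower. Without replicate 1 of Tspan8neg MHCIIlo, mt-Cytb (-0.83), Gm28661 (-0.94) and Sbno2 (-0.77) were under the limit, and without replicate 2 of Tspan8pos MHCIIhi mt-Cytb (-0.94), Gm28661 (-0.84) and Gm28437 (-1.0) were not called.

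Some values carry an overlap of annotated exons, since the sources differ on whether the libraries kept the strand, and reads of partners on opposite strands may then not have been told apart. A gene on the opposite strand overlaps the exons of Tspan8, Aire, Sirt1, H2-Oa, Ifi30, Ctsl, Ciita, Tnfsf9, Nfkb2, Krt10, Krt80, Krt5, Krt8, Dsp, Lypd3, Slurp1, Ovol1, Hopx, Cebpa, Elf3, Tnfaip2, Cftr, Avil, Trpm5, Dclk1, Trp73, Plet1, Itgb4, Dst, Col4a1, Col4a2, Pax1, Hoxa3, Nrarp, Cdkn1a, Cxcl16, Tgfa, Oasl1, Bcl2, Hmgcs1, Cd3e, Selp, mt-Co1, Rps2, Cd81, Efna3 and Ephb4. A gene on the same strand overlaps those of Ctsl, Rptn, Sbsn, Serpinb2, Hoxa3, Prn, Cyp2d9, Neat1, Rps2 and Tspan15, and the counts may have been split between such partners. The same reserve holds for near copies within the Sprr2, Saa, Krt6 and immunoglobulin families.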

How the data were processed

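RNA-seq libraries of 8 sorted mTEC samples were used, of which 4 form the comparison. The authors quantified the reads with Salmon 1.8.0 on the Gencode vM10 mouse transcriptome (mm10) and deposited estimated counts per gene as whole numbers; how the estimates were made whole is not given in the sources used here, and neither is a strand setting. The submitters' processing notes also name DESeq2 1.30.0, whose results were not used. The study's methods describe amplified and tagmented cDNA, the labels a stranded kit, so strandedness is unsettled. No column of the table was left unmapped. Of the gene identifiers, 25336 (99.49%) matched GENCODE M21 for symbols and positions, and 130 did not.

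The deposited estimated counts were tested with edgeR 4.0.16 (R 4.3.3, limma 3.58.1), with TMM scaling, a low-count filter by subset and a quasi-likelihood fit of 4 subset means to all 8 libraries. Genes were called at a Benjamini-Hochberg adjusted p under 0.01 and a fold of at least 2. Standard errors follow from the F statistic. The fit was tested on simulated data before use. With 2 libraries a subset, p-values measure only the spread between these samples, and whether same-numbered libraries share mice is not stated. Gene counts differed between replicates by more than sampling noise, with a chi-square per gene of 3.29 to 9.84 over the 4 subsets. It was 9.84 in Tspan8neg MHCIIlo and 5.25 in Tspan8pos MHCIIhi, against 3.29 in Tspan8neg MHCIIhi and 3.36 in Tspan8pos MHCIIlo. The spread shared by all 8 libraries may thus be too small for the 2 subsets compared, and SE and p-values too favourable. Floors were set at 3 counts and intervals at 95%. Alternatives covered DESeq2 1.42.0, scaling, filters, thresholds, depth, a replicate block and leaving out each library.

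The comparison and the gene lists were chosen with earlier results of these data known, and the casein pattern and 1 alias in the lists were corrected after the table was read. Some genes belong to more than 1 list, so that the lists are not independent of each other. Named genes were those the study names for these subsets, the 15 called genes with the largest folds in each direction (at least 10 CPM), the 10 most abundant in each direction, and up to 6 members of each list with the smallest adjusted p, with others whose missing call is reported. Chosen after their values were seen were Krt1, Lor, Abca12, Fa2h, Perp, Ly6d, Cebpa, Spdef, Hnf4a, Hnf4g, Apoa1, Anpep, Foxa1, Ltf, Crp, Gnat3, Il25, Lifr, Col4a1, Mki67, Cdk1, Cxcl16, Cxcl14, Il33, Ifit3 and Bcl2, and members named without a value. Some genes that the rule would name are not reported here.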

Additional observations from a re-analysis of the deposited data

How the results depend on the processing

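In the alternatives that fit the folds anew, no called gene that could be tested changed sign, while thinning left 184 of the called genes untested, the filter of 10 counts 163, the 4 libraries alone 73, DESeq2 11 and leaving out a library at most 3. DESeq2 gave 2270 higher and 1418 lower genes, DESeq2's size factors in edgeR 2497 and 1704, upper quartile factors 2205 and 2151, no filter 2640 and 1772, a filter of 10 counts in 4 libraries 2407 and 1724, the 4 libraries alone 2161 and 1387, libraries thinned to the smallest 2137 and 1498, an adjusted p of 0.05 2961 and 2281, and no limit on the fold 3092 and 2496. A test against a fold of 2, which asks for more than the threshold alone, left 1367 higher and 674 lower genes. Leaving out 1 library at a time gave 1966 to 2452 higher and 1023 to 1790 lower genes, the lowest of both without replicate 1 of Tspan8pos MHCIIhi. Such fits leave 1 subset with a single library, which is assumed to vary like the others, and the cause of the loss was not tested. The fit with replicate number as a block called 2511 higher and 1817 lower genes. The deviations of same-numbered libraries correlated at 0.092 over genes between the 2 subsets, and with only 2 pairs the numbers were taken as shared numbers, not as pairing. Of 213 named genes, 162 stayed on their side of the thresholds in every alternative and 5 changed sign in at least 1, none of them called. Over the fits that leave out 1 library they ran from -0.77 to 0.68 for Cdx2, from -0.45 to 0.14 for Krt5, from -0.40 to 2.28 for Foxa2, from -0.36 to 0.0088 for Ccl19 and from -0.17 to 1.24 for Ccl22, and upper quartile factors gave -0.11 for Cdx2. Depth limits genes near 3 counts in a subset, whose folds are bounds or intervals.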

Other observations

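Surface protein families besides those above were called in both directions. Of 28 tetraspanins, the family of Tspan8 itself, 5 were called higher and 4 lower, and 2 were lower without replicate 1 or without replicate 2 of Tspan8pos MHCIIhi. In the full fit, 17.9% of the tetraspanins were higher and 14.3% lower, near the 14.4% and 10.3% of all genes tested. Tspan15, a partner of the protease ADAM10, rose from 7.30 and 7.31 to 68.5 and 69.9 CPM (3.24) and Tspan1 from 54.8 and 72.6 to 280.4 and 289 CPM (2.16). The lower ones included Cd81 (-1.52), which many cells express, and Cd53 and Cd37, tetraspanins of blood cells. Thymocyte and B cell markers were higher in Tspan8neg MHCIIlo, and the summed myeloid and dendritic markers, Lyz2 among them, lower. Their part in the tetraspanin calls was not tested. Of 22 ephrins and Eph receptors, guidance ligands and their kinases, 8 (36.4%) were called higher and 1 (4.55%) lower. The shares of all genes tested were 14.4% and 10.3%. Efna3 (4.32), Efnb1 (1.68) and Efnb2 (1.49) rose, and Ephb4 (-2.01), a receptor for Efnb2, fell from 112 and 95.5 to 23.5 and 27.8 CPM.

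Genes of proteins attacked in autoimmune disease were called higher in 7 of 21 cases (33.3%) and lower in 3 (14.3%). Of all genes tested, 14.4% were higher and 10.3% lower, so that the lower share of the list was near that of all genes. Bpifb1, an airway protein and target in Aire deficiency, rose from 1.40 and 4.48 to 119 and 154 CPM, and Ins2, which encodes insulin, had counts of 1 and 1 in Tspan8neg MHCIIlo against 5.18 and 3.66 CPM, a ratio of 17.3 (95% counting interval 4.50 to 147). Col2a1, the collagen of cartilage, fell from 43.8 and 37.0 to 6.37 and 6.91 CPM (-2.60). Of 27 genes of the unfolded protein response and secretory pathway, 4 (14.8%) were called higher, near the 14.4% of all genes tested, and 0 lower, among them Sel1l (1.64), of the machinery that removes misfolded proteins, while Hspa5, the chaperone BiP, stood at 1044 and 899 against 1299 and 1238 CPM and was not called. Of 21 AP-1 and immediate early genes, which handling of tissue can induce, Egr3 (1.23) was called higher and Nr4a2 (-2.03) lower. These are 4.76% each way, below the shares of all genes tested. Fos was at 2673 and 2465 against 1531 and 1819 CPM with no call.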
